A study of Mus musculus with 19 samples.

Results

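Glycolysis, lactate handling and the pentose phosphate pathway were followed through 36 named genes in pancreatic duct organoids, which are hollow spheres of duct cells grown from mouse tissue in a gel. The members were the rows of the deposited expression table whose gene name equalled one of the 36 names, a rule that uses no measured value. The names themselves were chosen with earlier results of these data known. Of the 29861 gene rows in the table, 35 carried a member's name. The name Pkm had no row, and pyruvate kinase M was listed under its older symbol, Pkm2. Values were given as TPM, a unit that corrects the reads of a gene for its length and scales every library to the same total. A gene was tested when it reached a TPM of at least 1 in at least 6 lines, and 33 members were among the 12500 genes that did so. The other members, Eno2 and Pdk4, stayed at or below 0.37 and 0.07 TPM in all 19 lines.

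The series compared organoid lines from 3 tissues, all of strain C57B6/J. The 7 normal lines came from the ducts of wild-type mice (5 female, 2 male). The 6 PanIN lines came from ducts of pancreas holding pancreatic intraepithelial neoplasia, the precursor lesion of ductal adenocarcinoma, in mice that carried Pdx1-Cre (3 female, 3 male). The 6 tumor lines came from adenocarcinoma in mice that carried Trp53LSL-R172H and Pdx1-Cre (3 female, 3 male). Pdx1-Cre expresses the recombinase from an early pancreatic promoter, so the switched alleles were active from development on in the mutant mice, and the Trp53 allele came with the tumor group only. All lines were grown in Matrigel in the same medium, with growth factors (EGF and FGF-10), gastrin, R-spondin, noggin and a blocker of TGF-beta receptors, and several wells of a line were pooled for RNA. Ages were not given in the sources used here, nor was it stated whether lines came from separate animals, so p-values measure the spread between these lines. The lines of every group, tumor lines included, serve in more than 1 comparison, so the comparisons are not independent of one another.

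Glycolysis converts glucose to pyruvate in the cytosol. Pyruvate is either reduced to lactate, which leaves the cell through monocarboxylate transporters, or enters mitochondria and is oxidised by the pyruvate dehydrogenase complex, which pyruvate dehydrogenase kinases switch off. The pentose phosphate pathway branches off at glucose-6-phosphate: its oxidative arm makes NADPH and its other arm makes ribose phosphate for nucleotides. In pancreatic ductal cancer, raised glucose use and ribose synthesis are well known features of the tumor cells, and many glycolytic genes are textbook targets of the hypoxia-inducible factor HIF.

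Between 11938 and 12437 genes reached 1 TPM in each library. All 8 markers of duct epithelium reached 1 TPM in at least 1 line, against 1 of 7 acinar markers, 0 of 6 endocrine, 0 of 7 fibroblast and 0 of 5 endothelial markers. Of 6 leukocyte markers, Cd68 and Csf1r did so while Ptprc, the defining marker, stayed at or below 0.09 TPM; the summed leukocyte level was 4.41 to 8.28 TPM in normal, 2.75 to 3.65 in PanIN and 1.49 to 3.94 in tumor lines. The summed level of the duct markers was 7125 to 11600.5 TPM in normal, 5944 to 8394 in PanIN and 5444 to 6585 in tumor lines. Of 18 proliferation markers, 15 passed as higher in tumor against normal lines (median log2 change 0.68), beside 17.8% of all genes tested. Their summed level was 768 to 1757 TPM in normal, 1039 to 2176 in PanIN and 1383 to 2736 in tumor lines. A further difference lay in 11 expressed rows that have no comparison in the authors' deposited table, which held 23.3 to 28.6% of all TPM in normal, 22.6 to 27.0% in PanIN and 16.3 to 25.4% in tumor lines. The part of the marker levels in the results was not tested. With the libraries rescaled without the 11 rows, Gapdh and Pdha1 no longer passed between tumor and normal lines (log2 changes 0.27 and 0.11, limma adjusted p = 0.0975 and 0.176), and the share of higher genes among the calls moved from 55.1% to 37.7%. In RNA pooled from whole wells, fewer cells of a type and less RNA per cell cannot be told apart.

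The 35 members together held 0.728% (normal line 12) to 1.69% (tumor line 5) of the TPM of a library. Enolase enters these shares and the ranking below only through the Eno1 row, at 3.69 to 16.7 TPM. The row of Gm5506, a near-identical copy at 712 to 1612 TPM, is not a member and is left out. The median share was 1.24% in the normal, 1.11% in the PanIN and 1.26% in the tumor lines. The order depended on the rows that have no comparison in the authors' deposited table. As a share of the TPM of all other rows, the medians were 1.64% in normal, 1.52% in PanIN and 1.61% in tumor lines. On that scale PanIN line 5 was the highest line (2.06%), above tumor line 5 (2.02%). Gapdh had the highest level per length among the members, between 1776 and 4366 TPM, followed by Pkm2 between 1301 and 2859 TPM. Ldha, Aldoa and Pgk1 came next, with medians over all lines of 1373, 1386 and 1131 TPM. All tested members except Slc16a3 and Pdk2 stayed above 1 TPM in every line.

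**Figure D1:**
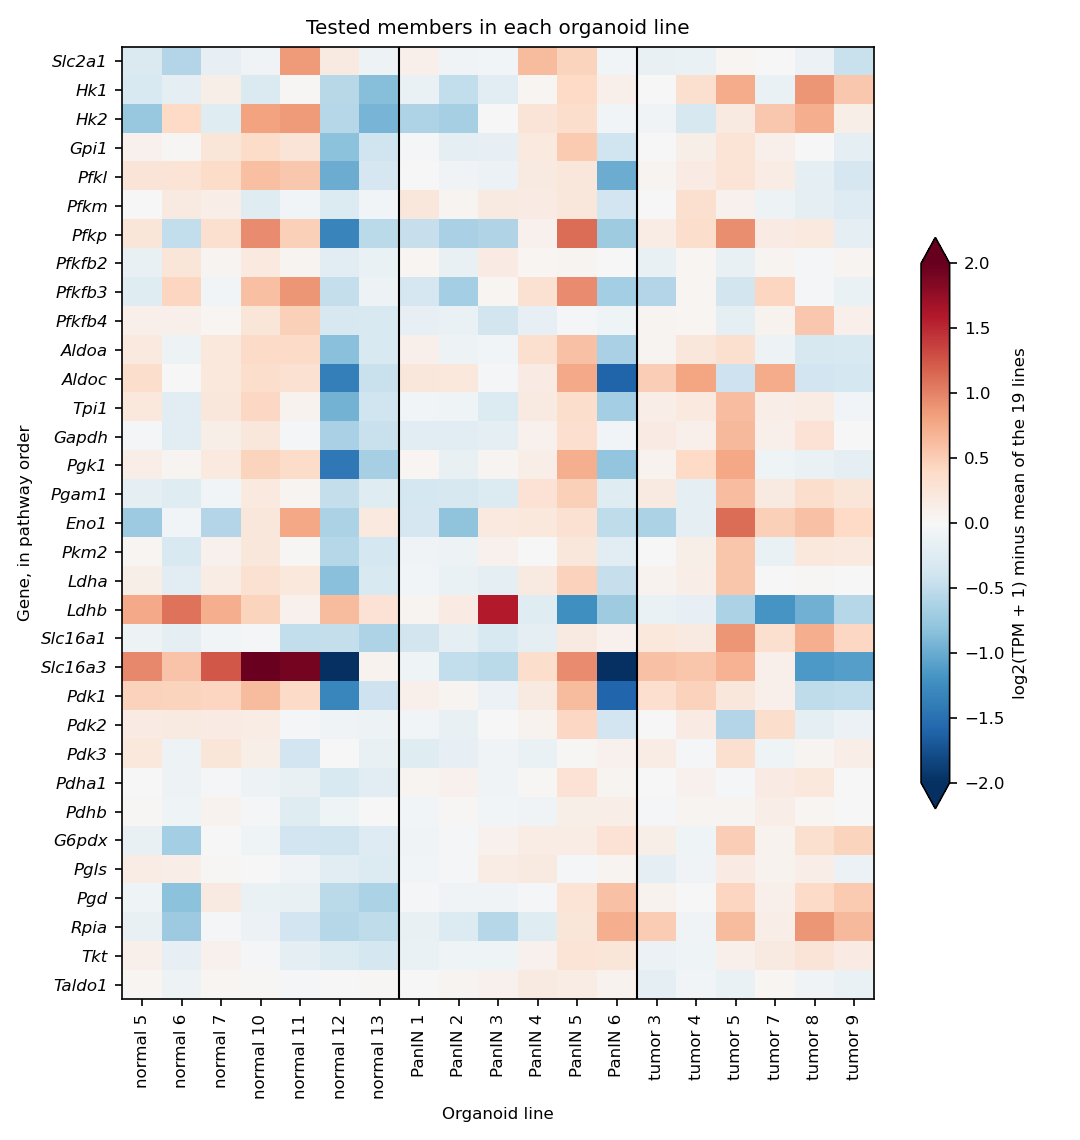
Heat map of the 33 tested members (vertical, ordered by role) in the 19 organoid lines (horizontal, by tissue of origin); colour is the log2(TPM + 1) value minus the member's mean over all lines, saturating at 2 in either direction. Normal line 12 and PanIN line 6 are low for most glycolytic members, tumor line 5 and PanIN line 5 are high, and no tissue is uniformly high or low.

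Between tumor and normal lines, 7 of 33 members were higher and 1 was lower at an adjusted p below 0.05, where 17.8% and 14.4% of all genes tested were. The 7 higher members were Hk1, which traps glucose in the cell, Gapdh, Slc16a1, Pdha1, and the pentose phosphate genes G6pdx, Pgd and Rpia. Ldhb, the lactate dehydrogenase subunit that favours pyruvate formation, was the lower one. Those 8 are 24.2% of the members, beside 32.2% of all genes tested in the same comparison. The difference between these shares was not tested. The median log2 change was 0.20 over the members and 0.04 over all genes, with 23 of 33 members above 0. Groups did not overlap for 2 members, Ldhb and Slc16a1, beside 7.26% of all genes tested.

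In the PanIN lines, G6pdx alone was higher than in normal lines and no member was lower, which is 3.03% of the members beside 6.78% of all genes (3.10% higher, 3.68% lower). The median log2 change of the members was 0.05 and that of all genes was -0.03, and 0 members had groups that did not overlap, beside 3.05% of all genes. At an unadjusted p below 0.05, limma gave 3 members as higher and 0 as lower, beside 7.99% and 11.0% of all genes. By its adjusted p, the authors' deposited table called 4 members higher and 1 lower, and 10.5% of all genes with an adjusted p. With no filter on low values G6pdx lost its call (adjusted p = 0.0557) and Eno2, the neuronal enolase, was the 1 member called, as lower (log2 change -0.17, adjusted p = 0.00561), at 0.22 to 0.37 TPM in normal and 0.10 to 0.23 in PanIN lines. Against PanIN lines, tumor lines had Slc16a1 alone higher and no member lower, again 3.03% of the members, beside 1.60% of all genes (0.392% higher, 1.21% lower). There the median log2 change was 0.15 over the members and 0.06 over all genes, and Slc16a1 was the 1 member without overlap, beside 1.80% of all genes. At an unadjusted p below 0.05, limma gave 3 members as higher and 1 as lower, beside 20.2% and 9.50% of all genes. By its adjusted p, the authors' deposited table called 1 member higher and 1 lower, and 11.7% of all genes with an adjusted p. Fold changes were computed after adding 1 to each TPM, so those of genes with low values come out too small.

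**Figure D2:**
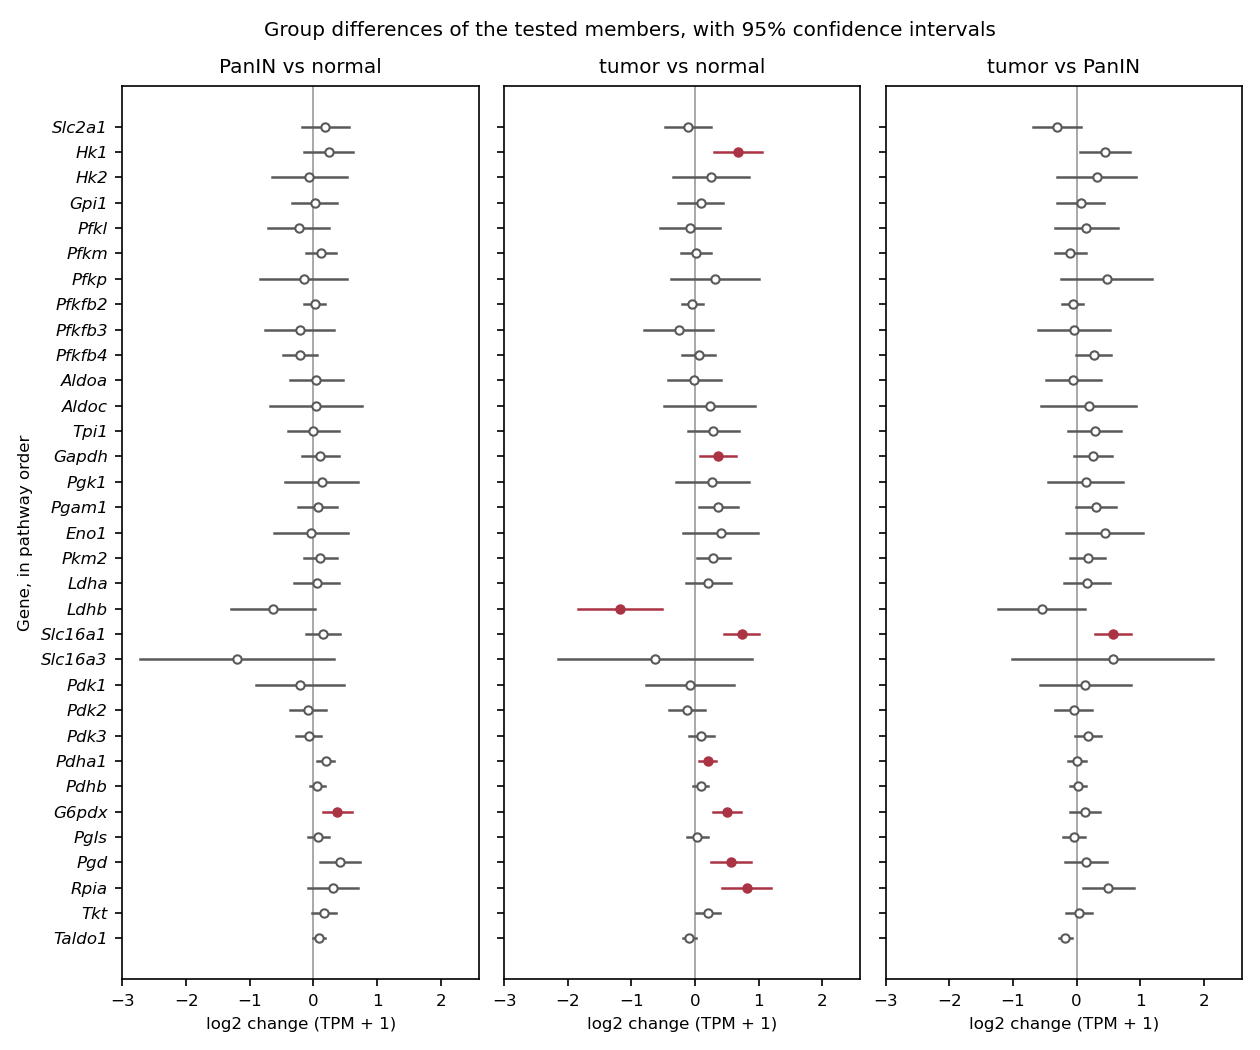
Log2 change of each of the 33 tested members (vertical, ordered by role) in the 3 comparisons; points are limma estimates on log2(TPM + 1), bars are 95% confidence intervals, and filled points pass an adjusted p of 0.05. Filled points stand at 8 members for tumor against normal and at 1 member for each of the other comparisons, and the widest interval is that of Slc16a3.

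Of the 3 members at the entry of glucose, Hk1 passed the test. Slc2a1, the main basal glucose transporter of epithelial cells, lay at 79.2 to 216 TPM in normal, 113 to 185 in PanIN and 86.8 to 122 in tumor lines, with a log2 change of -0.11 between tumor and normal lines (adjusted p = 0.649). Hk1, the housekeeping hexokinase, had TPM values of 7.66, 11.8 and 15.9 (lowest, median, highest) in normal lines. The same values were 10.1, 14.1 and 19.6 in PanIN and 13.2, 20.2 and 27.8 in tumor lines. Of the 6 tumor lines, 4 were above the highest normal line and 6 above the normal median, so the groups overlapped at their edges. Hk1 was 1.60-fold higher in tumor than in normal lines (log2 change 0.68 ± 0.18 SE, adjusted p = 0.00956). Hk2, the inducible hexokinase, spanned 7.41 to 28.1 TPM over the 19 lines, and its log2 change between tumor and normal lines was 0.26 with a 95% interval of -0.34 to 0.85.

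No phosphofructokinase passed the test in any comparison. Pfkl, the liver-type subunit of this committed step, was the most abundant of the 3 per length, with TPM values of 61.8, 150 and 188 (lowest, median, highest) in normal, 61.9, 121 and 145 in PanIN and 98.5, 133 and 149.5 in tumor lines. Pfkp, the platelet-type subunit, ranged more widely, from 20.2 to 113 TPM, and its log2 change between tumor and normal lines was 0.32 with an interval of -0.37 to 1.01. Pfkm, the muscle-type subunit, stayed within 9.80 to 16.6 TPM. Of the bifunctional enzymes that set fructose-2,6-bisphosphate, the activator of phosphofructokinase, Pfkfb2 was the most abundant per length. It lay within 27.3 to 38.0 TPM in every line, whereas Pfkfb3 and Pfkfb4 lay within 2.98 to 11.3 and 2.13 to 4.90 TPM. None of the 3 passed the test in any comparison. Gpi1, which interconverts glucose-6-phosphate and fructose-6-phosphate, spanned 115 to 292 TPM, with log2 changes of 0.02, 0.09 and 0.07 in the PanIN to normal, tumor to normal and tumor to PanIN comparisons.

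Of the members in the lower part of glycolysis, Gapdh alone passed the test, and only narrowly. Gapdh, which makes the pathway's NADH, had TPM values of 1776, 2745 and 3260.1 in normal, 2396, 2579 and 3531 in PanIN and 2783, 3071 and 4366 in tumor lines (lowest, median, highest). The groups overlapped: 2 of 6 tumor lines exceeded the highest normal line, and 6 of 6 exceeded the normal median. The difference between tumor and normal lines was 1.29-fold (log2 change 0.36 ± 0.14 SE, adjusted p = 0.0493). It lost its call in 25 of 34 other settings, among them each of the 3 other scalings and the omission of any 1 of 14 lines (normal 5, 6, 11, 12 or 13, PanIN 1, 2, 3, 4 or 6, tumor 3, 5, 7 or 8), with the highest adjusted p, 0.133, and a log2 change of 0.28 without tumor line 5.

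The other lower glycolytic genes kept their order of abundance in all 3 tissues without passing the test. Aldoa, the main aldolase, had TPM values of 750.0, 1529 and 1748 in normal, 856, 1365 and 2010.3 in PanIN and 1075, 1320.3 and 1674 in tumor lines (lowest, median, highest). Aldoc, the brain-type aldolase, was far lower, at 24.5 to 133 TPM. Tpi1, which equilibrates the triose phosphates, had TPM values of 394, 799.9 and 1016 in normal, 473, 727 and 976 in PanIN and 736, 839.9 and 1169.9 in tumor lines. Pgk1, the first ATP-producing enzyme of the pathway, had TPM values of 405, 1198 and 1477 in normal, 630.2, 1119 and 1799.7 in PanIN and 963, 1085 and 1861 in tumor lines. For these members the tissues overlapped over most of their range, and their log2 changes between tumor and normal lines were -0.01 for Aldoa, 0.23 for Aldoc, 0.29 for Tpi1 and 0.27 for Pgk1.

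Pgam1, which moves the phosphate of phosphoglycerate, and Pkm2, which makes pyruvate, came closest to the threshold without passing it. Pgam1 had TPM values of 261, 315 and 414 in normal, 285, 304 and 503 in PanIN and 317, 422 and 553 in tumor lines (lowest, median, highest). Its log2 change between tumor and normal lines was 0.37 (adjusted p = 0.0579). Pgam1 was called higher there in 5 of 34 other settings, among them array weights and the fit of only the 2 groups compared. Pkm2 had TPM values of 1301, 1965 and 2262 in normal, 1664, 1892 and 2279.5 in PanIN and 1768, 2171 and 2859 in tumor lines, and its log2 change was 0.29 (adjusted p = 0.0831). Pkm2 was called higher in tumor than in normal lines in 2 of 34 other settings, the omission of normal line 10 or of tumor line 7. Its row sums all transcripts of the gene, so it does not separate the M1 and M2 splice forms of pyruvate kinase.

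Enolase, the step between them, cannot be read from the Eno1 row alone. That row held 3.69 to 16.7 TPM, while the row of Gm5506, a near-identical retrogene copy, held 712 to 1612 TPM, so Eno1 received 0.322 to 1.03% of their sum. Reads of such copies can be split in more than 1 way, and the value of either row is uncertain. Tested as 1 gene, the sum had log2 changes of -0.06 for PanIN against normal, 0.09 for tumor against normal and 0.15 for tumor against PanIN (adjusted p = 0.897, 0.705 and 0.587).

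Of the lactate dehydrogenase genes, Ldhb passed the test and Ldha did not. Ldha, whose subunit favours lactate formation, had TPM values of 755, 1458 and 1669 in normal, 977, 1259 and 1861 in PanIN and 1339.8, 1391 and 1974 in tumor lines (lowest, median, highest). The tissues overlapped, and its log2 change between tumor and normal lines was 0.21 (adjusted p = 0.349) with a 95% interval of -0.14 to 0.56. Ldhb had TPM values of 8.78, 13.3 and 18.5 in normal, 2.96, 7.69 and 26.8 in PanIN and 3.09, 5.06 and 7.41 in tumor lines. Every tumor line was below every normal line, while the PanIN lines spanned both. Ldhb was 2.26-fold lower in tumor than in normal lines (log2 change -1.18 ± 0.32 SE, adjusted p = 0.00966), with changes of -1.02, -1.18 and -0.81 within the 3 series of library identifiers. Between PanIN and normal lines its log2 change was -0.63 (adjusted p = 0.285), and without PanIN line 3, the line at 26.8 TPM, it was -0.96 (adjusted p = 0.0166).

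Of the lactate transporters, Slc16a1 passed the test and Slc16a3 did not. Slc16a1, which encodes the broadly expressed transporter MCT1, had TPM values of 44.7, 61.5 and 67.6 in normal, 53.4, 61.3 and 78.3 in PanIN and 78.9, 89.6 and 128 in tumor lines (lowest, median, highest). All 6 tumor lines were above all normal and all PanIN lines, the highest PanIN line being only just below the lowest tumor line. Slc16a1 was 1.66-fold higher in tumor than in normal lines (log2 change 0.73 ± 0.13 SE, adjusted p = 0.000801), and 1.49-fold higher in tumor than in PanIN lines (log2 change 0.58 ± 0.14 SE, adjusted p = 0.0392). The call against PanIN lines was lost in 11 of 34 other settings, with adjusted p = 0.0911 once the series of library identifiers was a covariate. Leaving out PanIN line 1, 2, 3 or 4, or tumor line 5, 8 or 9, also ended it, with the highest adjusted p, 0.121, without tumor line 8. Within the 3 series its changes were 0.29, 0.90 and 0.86 against normal and 0.47, 0.81 and 0.18 against PanIN lines.

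Slc16a3, which encodes the lactate exporter MCT4, varied most of all members between lines. Its TPM values were 2.18, 39.0 and 79.8 in normal, 0.37, 15.97 and 38.4 in PanIN and 8.29, 25.1 and 32.2 in tumor lines (lowest, median, highest). The highest level was 216-fold the lowest over all lines (normal line 10 to PanIN line 6), 36.6-fold within the normal, 104-fold within the PanIN and 3.88-fold within the tumor group. Its log2 change was -1.20 between PanIN and normal (adjusted p = 0.408) and -0.63 between tumor and normal lines (adjusted p = 0.530). Without normal line 12 and PanIN line 6, a choice made after seeing the data, the latter was -1.18 (adjusted p = 0.0311).

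Of the members at the entry of pyruvate to mitochondria, Pdha1 alone passed the test. Pdha1, the X-linked catalytic subunit of pyruvate dehydrogenase, had TPM values of 151, 174 and 188 in normal, 177, 194 and 228 in PanIN and 183, 194 and 217 in tumor lines (lowest, median, highest). Of the 6 tumor lines, 4 exceeded the highest normal line. The difference between tumor and normal lines was 1.15-fold (log2 change 0.20 ± 0.07 SE, adjusted p = 0.0244), and that between PanIN and normal lines had the same size (0.20, adjusted p = 0.0778). The tumor call was lost in 9 of 34 other settings, among them all 3 other scalings: its log2 change was 0.16 with median-of-ratios scaling, 0.09 with quantile normalization and 0.11 when rescaled without the 11 rows (adjusted p = 0.0679, 0.299 and 0.176). The call was also lost on omission of normal line 12 or 13 or tumor line 7 or 8, the highest adjusted p of these being 0.0703 without tumor line 8. Pdhb, its partner subunit, lay within 87.7 to 114 TPM with a log2 change of 0.09 (adjusted p = 0.225). Of the inhibitory kinases, Pdk1 was the most abundant per length, with TPM values of 15.8, 55.0 and 63.6 in normal, 12.8, 42.8 and 63.6 in PanIN and 28.1, 45.6 and 55.9 in tumor lines. Pdk3 lay at 15.5 to 26.0 TPM, Pdk2 at 0.71 to 2.43 TPM and Pdk4 at or near 0, and no tested kinase of this family passed the test.

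Of the 3 members in the oxidative arm of the pentose phosphate pathway, G6pdx and Pgd passed as higher in tumor lines against normal lines and Pgls did not, and of the 3 in the non-oxidative arm Rpia did while Tkt and Taldo1 did not, beside 17.8% of all genes tested. G6pdx, the NADPH-producing enzyme that commits glucose-6-phosphate to the pathway, had TPM values of 61.3, 82.6 and 97.5 in normal, 93.7, 107 and 121 in PanIN and 93.1, 115 and 138 in tumor lines (lowest, median, highest). In the tumor group 5 of 6 lines exceeded the highest normal line, and in the PanIN group 4 of 6. G6pdx was 1.42-fold higher in tumor than in normal lines (log2 change 0.51 ± 0.11 SE, adjusted p = 0.00246) and 1.30-fold higher in PanIN than in normal lines (log2 change 0.38 ± 0.11 SE, adjusted p = 0.0394). The PanIN call was lost in 12 of 34 other settings, with adjusted p = 0.0622 once sex was a covariate. Leaving out normal line 6, 11, 12 or 13, or PanIN line 3, 4, 5 or 6, also ended it, with the highest adjusted p, 0.0933, without PanIN line 6. Its changes within the 3 identifier series were 0.27, 0.39 and 0.54 for PanIN and 0.20, 0.53 and 0.61 for tumor lines against normal lines.

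Pgd, the next NADPH-producing enzyme, had TPM values of 40.7, 64.9 and 82.4 in normal, 68.5, 71.0 and 109 in PanIN and 72.9, 86.6 and 104 in tumor lines (lowest, median, highest). The groups overlapped, 3 of 6 tumor lines being above the highest normal line. Pgd was 1.48-fold higher in tumor than in normal lines (log2 change 0.56 ± 0.15 SE, adjusted p = 0.00976), and its log2 change between PanIN and normal lines was 0.42 (adjusted p = 0.111). Rpia, which converts ribulose-5-phosphate to ribose-5-phosphate, had TPM values of 24.3, 30.8 and 40.1 in normal, 27.2, 35.5 and 67.7 in PanIN and 38.8, 60.9 and 75.9 in tumor lines. All tumor lines but 1 were above the highest normal line, and the PanIN lines reached from the normal to the tumor range. Rpia was 1.75-fold higher in tumor than in normal lines (log2 change 0.81 ± 0.19 SE, adjusted p = 0.00392). Between tumor and PanIN lines its log2 change was 0.50 (adjusted p = 0.101), and it passed without PanIN line 6 (0.65, adjusted p = 0.0164) or without tumor line 4 (0.60, adjusted p = 0.0357).

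The remaining members of the pathway did not pass the test. Pgls, the lactonase of the oxidative arm, lay within 65.9 to 90.2 TPM, with a log2 change of 0.04 between tumor and normal lines. Tkt, transketolase, had TPM values of 359, 409 and 488 in normal, 416, 460.5 and 552 in PanIN and 423, 504 and 548 in tumor lines (lowest, median, highest). Its log2 change between tumor and normal lines was 0.21 (adjusted p = 0.0908). Taldo1, transaldolase, had the smallest spread within groups of all tested members, with an SD of 0.07 on the log2 scale and all lines between 232 and 297 TPM. Its log2 change between tumor and PanIN lines was -0.18 (adjusted p = 0.0617), and it was called lower there in 10 of 34 other settings, all 3 other scalings included.

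**Figure D3:**
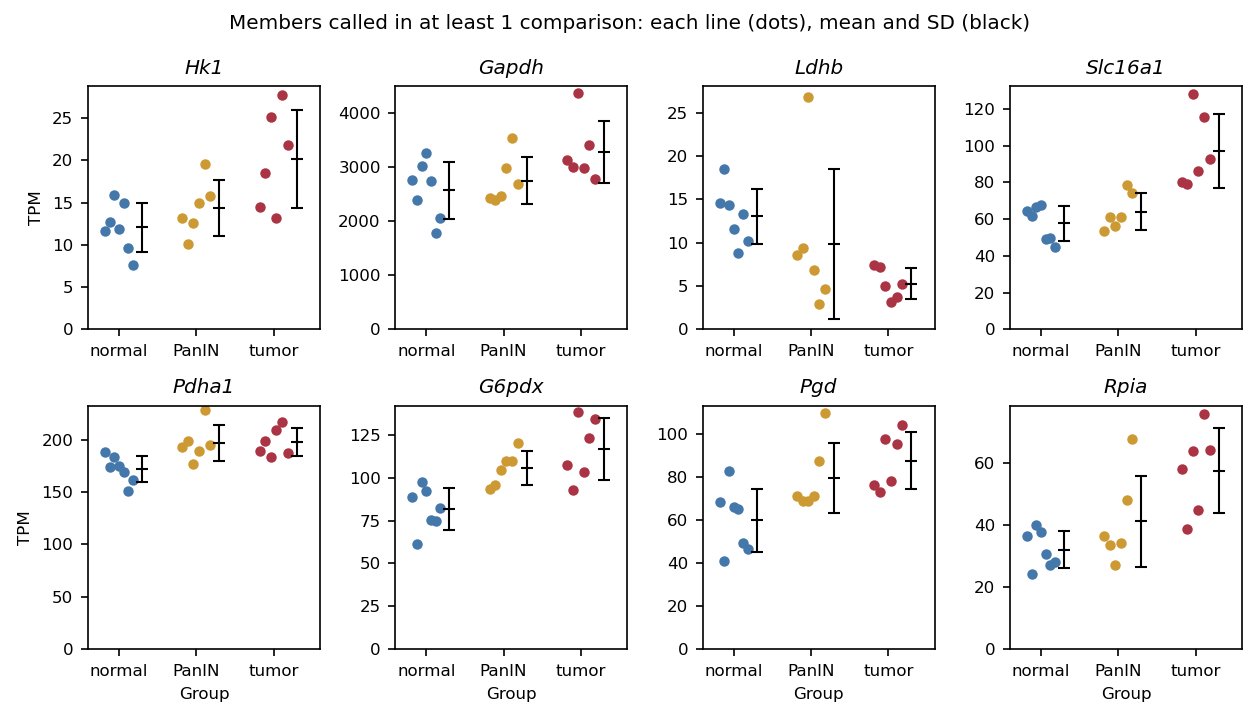
TPM of the members that passed the test in at least 1 comparison, in each of the 19 lines (points, by tissue of origin), with the group mean and SD in black beside them. The tumor points of Slc16a1 lie above all others, those of Ldhb lie below all normal points, and the points of the other members overlap between tissues.

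Within the 3 series of library identifiers, which are runs of identifiers in the column names and not stated batches, the 8 members called between tumor and normal lines moved in the same direction in each series. For Hk1 the changes were 0.45, 0.62 and 0.97, for Gapdh 0.15, 0.24 and 0.63, for Pdha1 0.13, 0.23 and 0.27, for Pgd 0.25, 0.45 and 0.88 and for Rpia 0.23, 0.80 and 1.12. The members were called from the same lines that make up the series, so a shared direction is partly built in and is no separate check. The share of all called genes that kept their direction in each series is not given here. The first series holds 1 tumor line, and no test was made within a series. Hk1, Ldhb, Slc16a1, G6pdx, Pgd and Rpia kept their tumor call when any 1 line was left out.

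For Pgk1 the SD within groups was 0.54 on the log2 scale, beside a change of 0.27 between tumor and normal lines, and most other glycolytic members likewise varied more within tissues than between them. Normal line 12 had the lowest level of 12 of the 33 tested members, and tumor line 5 the highest level of 10. Pgk1 was taken as a reference for the variation within tissues, a choice made with its levels known. Each gene's deviations from its group means over the 19 lines were correlated with those of Pgk1. Of the 32 other tested members, 13 had a Pearson r of at least 0.6, which is 40.6%, beside 2.27% of the 12499 other genes. The median r over those genes was -0.11, and 0 members had an r of -0.6 or below, beside 3.51% of the genes. Lines share their library and scaling across genes, so these correlations describe the 19 libraries.

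The closest to Pgk1 was Aldoa, with r = 0.96 and Spearman's rho = 0.92 (permutation within groups, p = 1e-05 for r, the smallest that 100000 permutations can give, and adjusted p = 6.55e-05 over 72 relations). Without normal line 12 and PanIN line 6, the lines farthest from the median of Pgk1, its r was 0.93, and within the 3 identifier series it was 0.80, 0.92 and 0.98. Ldha followed with r = 0.95 and rho = 0.90, and r = 0.90 without the same lines. Gpi1 had r = 0.95, Pfkl 0.94, Tpi1 0.93, Slc16a3 0.91, Pdk1 0.90, Pfkp 0.88, Pkm2 0.83 and Gapdh 0.81, all with positive r in each identifier series. Aldoc (r = 0.74), Pfkm (0.61), Pgam1 (0.60) and Pfkfb3 (0.59) also passed, which makes 14 of 32 members, with 0 negative. Without normal line 12 and PanIN line 6 their r was 0.44, 0.38, 0.55 and 0.44, so the relations of Aldoc, Pfkm and Pfkfb3 rested in large part on those lines. Within the 3 identifier series r was 0.43, 0.01 and 0.91 for Aldoc, 0.58, 0.30 and 0.72 for Pfkm, 0.42, 0.75 and 0.95 for Pgam1 and 0.43, -0.07 and 0.86 for Pfkfb3. Pfkfb3 did not pass by Spearman's rho (0.53, permutation, adjusted p = 0.0704). The enolase row of Gm5506 had r = 0.91.

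None of the 6 pentose phosphate members passed for Pgk1: r was 0.42 for Pgls, 0.25 for Tkt, 0.19 for Pgd, 0.10 for G6pdx, 0.03 for Taldo1 and 0.01 for Rpia. Ldhb (r = -0.01) and Pdhb (-0.04) were near 0, and Slc16a1 (0.38), Hk1 (0.46) and Slc2a1 (0.21) did not pass. Of the 7 members higher in the tumor group, Gapdh alone passed for Pgk1 as well. Of 19 HIF targets outside glycolysis, 13 passed, all with a positive r. An r of at least 0.6 was reached by 13 of them, beside 2.27% of the 12499 other genes. Among those that passed were Fam162a (0.96), Bnip3 (0.93) and Ndrg1 (0.92), which are known for their induction in low oxygen. Without normal line 12 and PanIN line 6 their r was 0.92, 0.86 and 0.91. Vegfa, the blood vessel growth factor, had r = 0.87 and Car9, a carbonic anhydrase, 0.83. Without the same lines these were 0.71 and 0.67. Within the 3 identifier series r was 0.40, 0.52 and 0.98 for Vegfa and 0.56, 0.69 and 0.87 for Car9. Kdm3a (0.49), Mxi1 (0.48), Ankrd37 (0.42), Higd1a (0.30), Stc2 (0.24) and Ddit4 (0.16) did not pass. The cause of these relations was not tested. Of 20 regulators of metabolism, 1 passed: Prkaa1, a catalytic subunit of AMP-activated kinase, had r = -0.80, and -0.65 without normal line 12 and PanIN line 6. Within the 3 identifier series the r of Prkaa1 was -0.17, -0.91 and -0.95. An r of -0.6 or below was found for 3.51% of the 12499 other genes. Hif1a, the oxygen-regulated subunit of HIF, which is controlled mainly at the protein level, had r = -0.44 (permutation, adjusted p = 0.184).

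**Figure D4:**
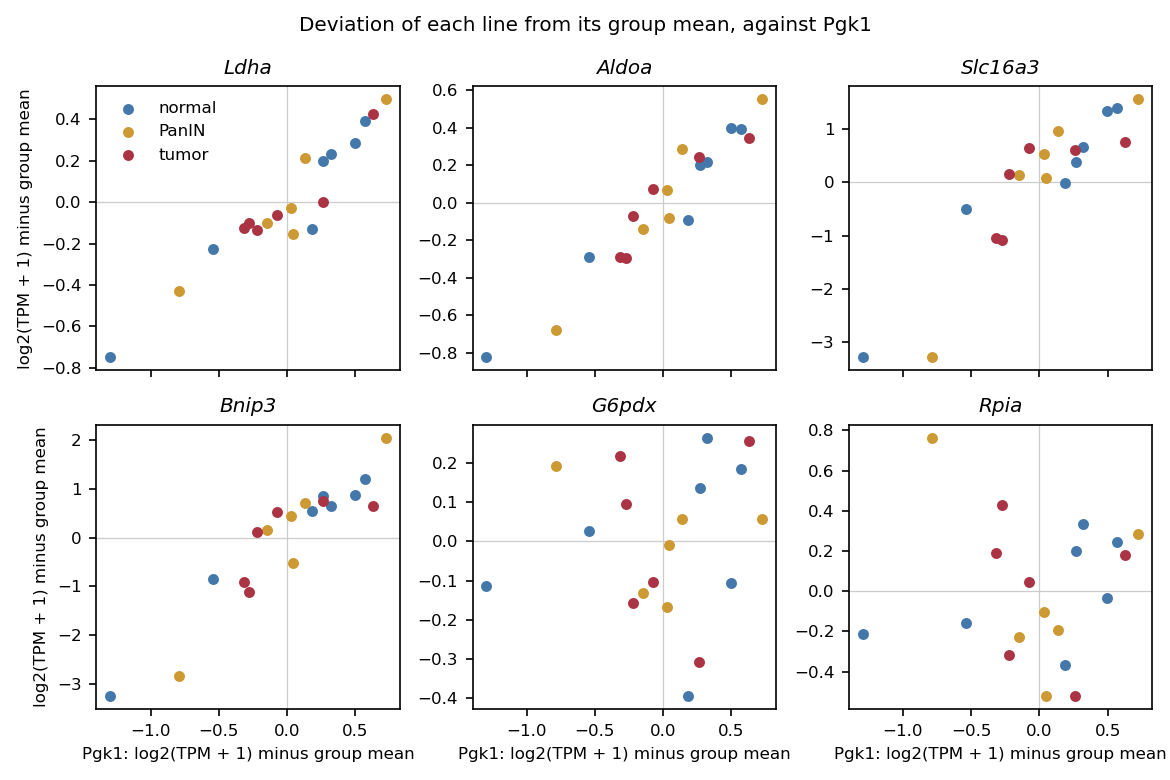
Deviation of each line from its group mean on the log2(TPM + 1) scale for Pgk1 (horizontal) against other genes (vertical); each point is 1 of the 19 organoid lines, coloured by tissue of origin. Ldha, Aldoa, Slc16a3 and the HIF target Bnip3 are higher where Pgk1 is higher, with normal line 12 and PanIN line 6 at the lower left, while the points of G6pdx (r = 0.10) and Rpia (0.01) scatter.

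Promoter stretches chosen around an ACGTG match are shown for Pgk1 and members that varied with it, because HIF binds these letters in textbook hypoxia response elements. Other annotated starts of the same genes had 0 matches before them: start 3 of 3 for Aldoa, 2 of 2 for Ldha and 1 of 2 for Pkm2. Sequences are from RefSeq, build GRCm38.p6, which differs from the mm9 build of the expression files, and cover 250 bases before to 50 after each annotated start; 35 of 35 members matched, with 52 entries. Each stretch lies before the start and reads 5′ to 3′ along the strand of the gene, and capitals mark ACGTG or, where it stands on the opposite strand, CACGT. Pgk1 is at chrX:106186931-106187010 (plus), Ldha at chr7:46845724-46845803 (plus), Aldoa at chr7:126799339-126799418 (minus), Slc16a3 at chr11:120948987-120949066 (plus) and Pkm2 at chr9:59657114-59657193 (plus).
Pgk1: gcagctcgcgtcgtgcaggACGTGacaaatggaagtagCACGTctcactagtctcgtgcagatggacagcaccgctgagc
Ldha: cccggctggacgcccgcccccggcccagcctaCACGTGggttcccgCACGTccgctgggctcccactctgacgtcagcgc
Aldoa: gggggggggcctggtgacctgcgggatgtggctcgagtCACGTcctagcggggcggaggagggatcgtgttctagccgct
Slc16a3: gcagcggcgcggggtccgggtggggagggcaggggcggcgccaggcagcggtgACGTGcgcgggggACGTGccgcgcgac
Pkm2: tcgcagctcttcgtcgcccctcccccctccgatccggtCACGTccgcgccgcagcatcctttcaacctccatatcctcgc
The Pgk1 and Slc16a3 stretches hold 2 matches each and the Ldha stretch holds 3, of which CACGTG, a palindrome, counts on both strands.

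Over the whole 300-base windows and both strands, ACGTG stood in 19.6% of the 32851 promoters in the table. It stood in 10 of the 15 members that varied with Pgk1, Pgk1 included (13 of their 25 entries), and in 9 of the other 18 tested members (10 of 25 entries). GCGTG, the other common form of the element, stood in 32.4% of all promoters. It stood in 9 of the 15 (12 of 25 entries) and in 16 of the 18 (19 of 25 entries). A gene with more entries has more chances of a match, so the entries are the measure like that of all promoters. CACGTG, the E-box bound by Myc family factors, which contains ACGTG, stood in 7.15% of all promoters and in 3 members of each set (3 of 25 entries in each). Gpi1, Pfkl, Tpi1, Pdk1, Pfkp and Gapdh had no ACGTG before the start in these windows. A match is a description of letters, not of a bound site.

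Isozymes of 1 step were compared by their ratio within each line, in which the scaling of a library cancels except for the 1 TPM added to both genes. Of 10 pairs listed, 9 had enough signal, which gave 27 relations over the 3 comparisons, tested by exact two-sided permutation over lines. Only Ldhb to Ldha passed. The TPM ratio was 0.00566, 0.00959 and 0.0176 (lowest, median, highest) in normal, 0.00159, 0.00567 and 0.0227 in PanIN and 0.00231, 0.00329 and 0.00526 in tumor lines. Every tumor line was below every normal line, and the mean log2 ratio with 1 TPM added to both genes was 1.39 lower in tumor lines (a difference of -1.39, exact permutation p = 0.00117, adjusted p = 0.0315). With 5 TPM added to both genes the difference was -1.02 and did not pass (exact permutation p = 0.00233, adjusted p = 0.0629). With any 1 normal or tumor line left out it stayed between -1.52 and -1.25, and the groups did not overlap. Without any 1 of the 6 tumor lines the adjusted p was 0.0682 (exact permutation p = 0.00253). Without 1 normal line the exact permutation p was 0.00216, the smallest that 6 lines against 6 allow, so that a lone ratio cannot have an adjusted p below 0.0584. Without normal line 10 or 12 another ratio reached the same p, and the adjusted p was 0.0292.

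The other isozyme ratios did not pass after adjustment; between tumor and PanIN lines, with 6 lines each, a lone ratio could not have passed. Pfkp to Pfkl had a log2 ratio that differed by 0.40 between tumor and normal lines (exact permutation p = 0.0291, adjusted p = 0.390). Pfkm to Pfkl differed by -0.25 between tumor and PanIN lines (exact permutation p = 0.0433, adjusted p = 0.390). The ratio of the lactate transporters, Slc16a3 to Slc16a1, was 0.0439 to 1.55 in normal, 0.00499 to 0.490 in PanIN and 0.0718 to 0.371 in tumor lines. Its log2 difference between tumor and normal lines was -1.36 (exact permutation p = 0.0833, adjusted p = 0.558).

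**Figure D5:**
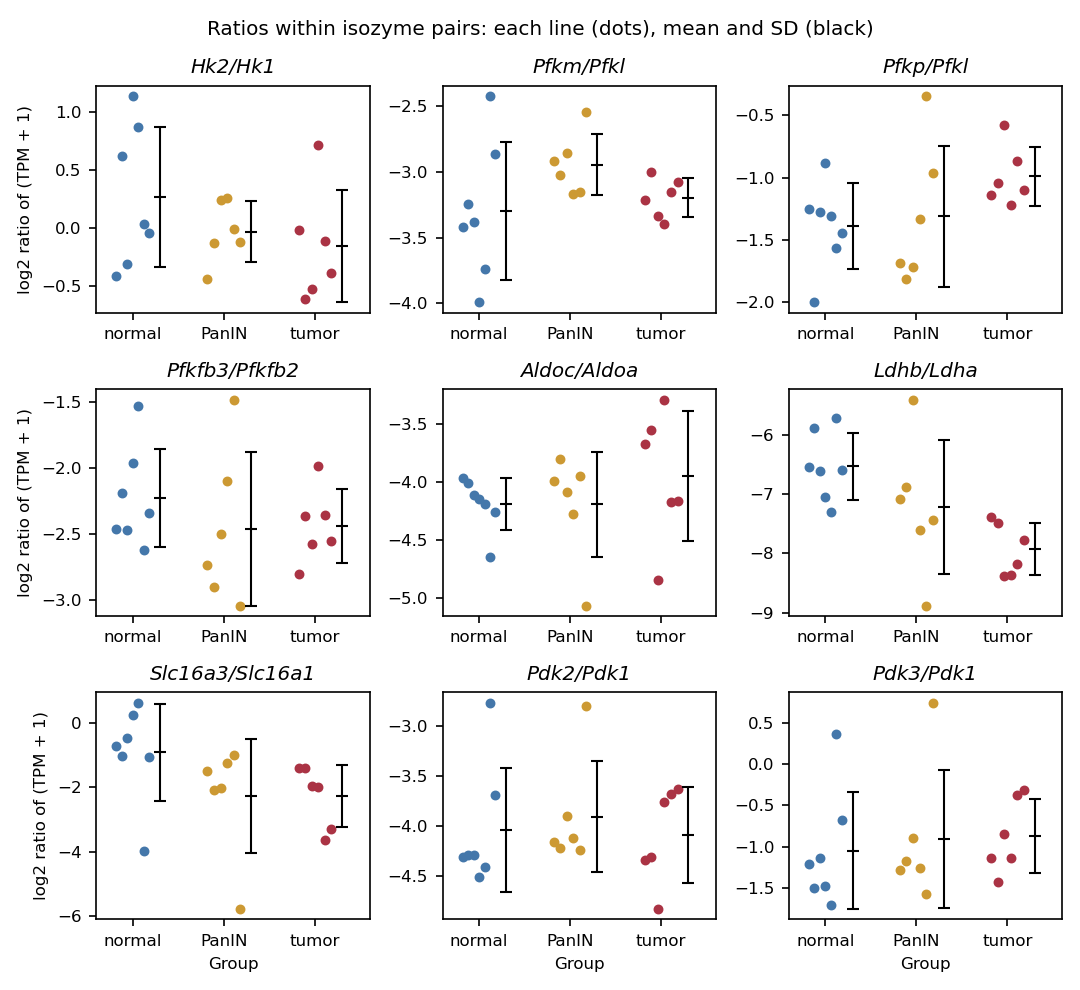
Log2 ratio of the TPM (plus 1) of 2 isozyme genes in each line (points, by tissue of origin), with the group mean and SD in black, for the 9 pairs tested. Ldhb to Ldha is the pair whose tumor points lie below all normal points; in the other pairs tumor and normal points overlap.

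Other genes of the same pathways, from lists compiled with earlier results known, are given by their counts. Of all genes tested, 3.10% were higher and 3.68% lower in PanIN than in normal lines. The shares were 17.8% and 14.4% for tumor against normal lines, and 0.392% and 1.21% for tumor against PanIN lines. Of 22 other glycolysis and hexose entry genes, PanIN lines had 4 higher and 0 lower than normal lines. Tumor lines had 7 higher and 2 lower against normal lines, and 0 higher and 2 lower against PanIN lines. Hkdc1, a hexokinase relative, had a mean of 1.07 ± 0.52 TPM (SD, n = 7) in normal, 3.48 ± 1.83 (n = 6) in PanIN and 4.57 ± 1.83 (n = 6) in tumor lines (tumor against normal log2 change 1.41, limma adjusted p = 0.000667). Slc2a3, a high-affinity glucose transporter, went from 1.62 ± 0.46 TPM in normal to 6.24 ± 2.96 in tumor lines (log2 change 1.37, adjusted p = 0.00175). Bpgm, the 2,3-bisphosphoglycerate mutase, went from 22.3 ± 0.82 to 30.1 ± 4.77 TPM (log2 change 0.40, adjusted p = 0.00128). Slc2a9, a urate and hexose transporter, had 1.49 ± 0.38 TPM in normal, 3.06 ± 0.71 in PanIN and 1.28 ± 0.40 in tumor lines, and it was higher in PanIN than in normal lines (log2 change 0.70, adjusted p = 0.00333) and lower in tumor than in PanIN lines (-0.83, adjusted p = 0.00436).

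Among 9 other genes of lactate and monocarboxylate transport, 2 were higher and 2 lower in tumor than in normal lines. That is 44.4% of the list, beside 32.2% of all genes tested. Slc16a12 fell from 34.2 ± 13.4 TPM (SD, n = 7) in normal to 9.96 ± 6.39 (n = 6) in tumor lines (log2 change -1.81, limma adjusted p = 0.00213). Me2, the mitochondrial malic enzyme, rose from 29.7 ± 3.64 to 47.0 ± 9.08 TPM (log2 change 0.63, adjusted p = 0.00245). Of 12 genes of pyruvate entry to mitochondria, 3 were higher and 1 lower in tumor than in normal lines. At 33.3% of the list, this is near the 32.2% of all genes tested. Pcx, pyruvate carboxylase, was the lower one (log2 change -0.56, adjusted p = 0.00771).

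Of 7 other pentose phosphate genes, 3 were higher and 1 lower in tumor than in normal lines. That is 57.1% of the list, beside 32.2% of all genes tested. H6pd, the enzyme of the endoplasmic reticulum that carries out the same oxidation as G6pdx, moved opposite to it, from 112 ± 16.7 TPM (SD, n = 7) in normal to 73.6 ± 18.99 (n = 6) in tumor lines (log2 change -0.62, limma adjusted p = 0.00228). Dera and Rbks, which handle deoxyribose phosphate and ribose, were higher (log2 changes 0.37 and 0.40, adjusted p = 0.00382 and 0.0104). Of 20 genes of the tricarboxylic acid cycle, 10 were higher and 1, Idh2, was lower in tumor than in normal lines, with a median log2 change of 0.20. The called genes were 55% of this list, beside 32.2% of all genes tested. In the hexosamine branch, which draws on fructose-6-phosphate for glycosylation, 2 of 11 were higher and 4 lower. The called share was 54.5%, beside the same 32.2%. Nagk, the N-acetylglucosamine kinase that salvages the sugar, was 26.4 ± 2.04 TPM in normal, 20.1 ± 2.05 in PanIN and 14.8 ± 2.69 in tumor lines, and it passed in all 3 comparisons (log2 changes -0.38, -0.81 and -0.43, adjusted p = 0.0237, 4.38e-05 and 0.0419). Of the 19 HIF targets outside glycolysis, limma called 0 between tumor and normal lines, and 0 had an unadjusted p below 0.05. For all genes tested, 32.2% were called there, and 25.1% were higher and 18.9% lower by unadjusted p. Stc2 was the 1 target called between PanIN and normal lines, where it was lower (log2 change -0.87, adjusted p = 0.0279). That is 5.26% of the targets, beside 6.78% of all genes tested.

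The authors' deposited table of count-based comparisons called 10.5% of the genes given an adjusted p for PanIN against normal, 32.5% for tumor against normal and 11.7% for tumor against PanIN. In the authors' deposited table, 6 members were higher and 2 lower in tumor than in normal lines. They shared 7 of the 8 calls made from TPM with the same sign, Gapdh being the exception (adjusted p = 0.0723 in the authors' deposited table). Eno2, which was below the filter of the TPM test, was lower in tumor lines in the authors' deposited table (log2 change -1.16, adjusted p = 0.00125). Between PanIN and normal lines, the authors' deposited table listed 4 members as higher, G6pdx, Pdha1, Pgd and Rpia, and 1 as lower, Eno2. Between tumor and PanIN lines the authors' deposited table listed Slc16a1 as higher and Taldo1 as lower (log2 change -0.24, adjusted p = 0.0012).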

How the data were processed

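RNA of 19 organoid lines was sequenced after removal of ribosomal RNA, with a kit that marks strand, per the labels' protocols. The authors deposited TPM per gene and line, which keep no depth: how deeply each library was sequenced is unknown, and values carry no counting error. Per the submitters' processing notes the tools were FastQC, Bowtie 1.1.0, RSEM 1.2.11, DESeq and DESeq2 1.4.1 with build mm9, while the annotation used for counting was not given in the sources used here. Per the file headers, the same deposited table holds the authors' comparisons: mean signal, log2 fold change, its error and test statistic (used only as a score), p-value and adjusted p-value. Certain genes and alleles are not reported here.

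The members and gene lists were chosen with earlier results of these data known. Tests were made with limma 3.58.1 (R 4.3.3; data.table package, version 1.17.8) on log2(TPM + 1) of the 12500 genes with a TPM of at least 1 in at least 6 lines, with 1 mean per group over all 19 lines, a mean-variance trend and Benjamini-Hochberg adjustment within each comparison, called below 0.05. All members were to be accounted for, with values per group for called members and for the most abundant gene of a step, and up to 3 genes of smallest p per other list and comparison. Isozyme ratios were tested by exact permutation and relations to Pgk1 by 100000 permutations within groups (Python 3.11.15, numpy 2.4.6, scipy 1.17.1, pandas 2.3.3, matplotlib 3.10.9). The fitting steps were tested on simulated data. No column belonged to other samples. Alternatives were pseudocounts of 0.1 and 5, other filters, 3 other scalings, covariates, variance models, a replicate block and leaving out each line. No count model was run, since no counts were used.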

Additional observations from a re-analysis of the deposited data

Results flagged for a closer look

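In 8 of 99 groups of lines examined over the 33 tested members, the highest or lowest line stood apart from the others of its tissue by Dixon's criterion at 95%, where chance gives about 1 in 20. Slc2a1 was at 216.13 TPM in normal line 11, with the next normal line at 135.32. Pfkl was at 61.92 TPM and Pfkm at 9.80 TPM in PanIN line 6, with the next PanIN lines at 114.3 and 13.62. Pfkp was at 113.47 TPM in PanIN line 5, the next being at 55.2. Pfkfb4 was at 4.90 TPM in tumor line 8, the next being at 3.36. Tumor line 5 stood apart for Tpi1, at 1169.92 TPM against 874.32 in the next tumor line, and for Ldha, at 1974.18 TPM against 1470.49. Ldhb was at 26.81 TPM in PanIN line 3, while the next PanIN line was at 9.35.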

How the results depend on the processing

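No called member changed its sign in any of 34 other settings. The 8 tumor calls against normal lines numbered 6 to 10 when 1 line was left out. The single PanIN call against normal lines became 0 with sex as a covariate, 2 with array weights, 5 in the authors' deposited table and 0 without normal line 12 and PanIN line 6, and 0 to 2 when 1 line was left out; with no filter on low values the 1 call was Eno2, lower, in place of G6pdx. The single tumor call against PanIN lines became 0 without a filter on low values, 0 with the identifier series as a covariate and 0 with only the 2 groups in the fit. It became 2 with median-of-ratios scaling, 2 with quantile normalization, 2 when rescaled without the 11 rows, 2 in the authors' deposited table, 3 without normal line 12 and PanIN line 6, 8 with array weights, and 0 to 3 when 1 line was left out. The authors' table and the joint omission of those lines were chosen after seeing the data. The single isozyme ratio call became 0 with a pseudocount of 5 and 0 to 2 when 1 line was left out; with 6 lines in both groups the smallest exact two-sided p is 0.00216, which gives a lone ratio an adjusted p of 0.0584, so a call was out of reach for it without a normal line and with all lines in tumor against PanIN lines. The other comparisons had 0 calls in each setting run. Unless said, the cause was not tested.

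With line numbers as a replicate block, the member calls were 0 for PanIN against normal, 0 for tumor against normal and 0 for tumor against PanIN lines. The 7 pairs of lines that share a number correlated at -0.307 to 0.247 (median 0.0707). All 7 joined lines of different identifier series. Across groups and series, the 75 pairs with different numbers correlated at -0.725 to 0.607 (median -0.0191). With so few pairs, these values cannot tell whether the numbers pair the lines.

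Over all genes, the 847 calls between PanIN and normal lines became 535 with a filter at 5 TPM, 258 with the replicate block, 495 without PanIN line 5, 434 without normal line 12 and PanIN line 6, and 1635 in the authors' table. The 4024 tumor calls against normal lines became 225 with the block and 2652 without tumor line 8, and rescaling without the 11 rows moved the share of higher calls from 55.1% to 37.7%. The 200 tumor calls against PanIN lines ranged from 51 (without tumor line 8) to 2833 (without PanIN line 6) when 1 line was left out, and were 93 under no filter, 130 at 5 TPM, 303 and 333 under median-of-ratios and quantile scaling, 65 with the identifier series, 4889 with array weights, 97 with only the 2 groups, 8 with the block and 1464 in the authors' table. With no filter, Eno2 was also lower in tumor than in normal lines (log2 change -0.19, limma adjusted p = 0.00163), and Pdk4 was not called; the counting error of such low values is unknown without counts.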
